A study of Homo sapiens with 6 samples.

Results

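A set of 10 genes of the TGF-beta and BMP pathways was followed in SKOV3 cells, an established human ovarian cancer cell line that the labels describe as high grade serous, after transfection with the microRNA miR-21. The genes were the ligands TGFB1 and TGFB2, the receptors TGFBR1, TGFBR2 and BMPR2, the inhibitory SMAD7, and the response genes TGFBI, ID1, ID2 and ID3. All probe sets that the platform annotation assigns to 1 of these genes alone were taken, which gave 24 of the 54675 on the array. Another probe set, 213931_at, names ID2 together with ID2B and was set apart. The groups were cells transfected for 24 h with miR21 precursor at 5 nM (3 arrays) and cells transfected for 24 h with negative control precursor miRNA (3 arrays). All 6 samples share the cell line, a transfection and the culture medium, and no untransfected cells were analysed here. The labels number the arrays of each group 1 to 3 and do not say whether these were separate cultures, so the spread behind each p-value may be technical and is that of these arrays alone. The question was whether pathway genes that have been reported as miR-21 targets (TGFBR2, BMPR2, SMAD7 and TGFBI) differed from the ID genes in their response.

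TGF-beta ligands bind the type II receptor TGFBR2, which recruits and phosphorylates the type I receptor TGFBR1. BMP ligands signal through type II receptors such as BMPR2 together with their own type I receptors. The activated type I receptors phosphorylate SMAD proteins that enter the nucleus and change transcription, and SMAD7 is an inhibitory SMAD that both branches induce and that blocks the receptors. TGFBI encodes a secreted matrix protein induced by TGF-beta, and the ID genes encode helix-loop-helix proteins that lack a DNA-binding region and hold E proteins away from DNA. ID1, ID2 and ID3 are classical BMP-induced genes, and in epithelial cells TGF-beta can repress them.

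The agent of the study is given as the mature miRNA in RefSeq (GRCh38.p14, chr17:59841273-59841294, plus strand), 5′ to 3′, with its seed (bases 2 to 8) in capitals.
hsa-miR-21-5p: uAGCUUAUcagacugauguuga
A full complement of this seed in a transcript reads AUAAGCU. Target sites in the members' transcripts were not analysed here, so the name "reported target" rests on general knowledge and not on these data.

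Signals are linear MAS5 intensities, and differences are miR21 minus control on the log2 scale. Of the 24 member probe sets, 15 had a mean log2 signal over the 6 arrays at or above 6.03, the median of all 54613 non-control probe sets (a signal of 65.5), and were tested among 27307. The other 9 are given as values, since dim MAS5 signals are noisy on the log scale. Arrays of number 1 stood apart, with a median signal of 117 (miR21) and 125 (control), against 55.2 and 56.6 on the other miR21 arrays and 57.9 and 61.8 on the other control arrays. The 3′ over 5′ signal ratio of ACTB, a sign of RNA or amplification quality, also went with the number (1.96, 3.32 and 1.36 with miR21, against 1.79, 2.88 and 1.29 with control). Its part in the results was not tested. Of the 10 listed markers of SKOV3 and serous ovarian cancer, 8 were above the signal filter, among them ERBB2, EPCAM and PAX8, whereas MUC16 and WT1 were below it. All 3 measured leukocyte markers were below the filter, as were 4 of 6 fibroblast and 2 of 3 endothelial markers. The summed fibroblast signal was 329 to 1237 with miR21 and 394 to 1068 with control. The summed endothelial signal was 63.3 to 500.3 with miR21 and 73.9 to 652 with control. The summed leukocyte signal was 19.6 to 123 with miR21 and 60.3 to 201 with control.

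TGFBI and ID2 showed the widest differences among the tested probe sets of the 10 genes. TGFBI was lower with miR21 and ID2 was higher, and both kept their sign in all 3 replicate numbers. ID1 and the brighter TGFBR2 probe set were a little lower in all 3 numbers, and 1 of the TGFBR1 probe sets was higher in all 3. SMAD7, ID3 and the 4 tested BMPR2 probe sets were lower with miR21 in numbers 1 and 2 and higher in number 3. None of the 15 passed limma (adjusted p = 0.999994 for each, Benjamini-Hochberg over 27307 probe sets). At an unadjusted p under 0.05 the same fit held 2 of them, TGFBI and ID2, where 1.95% of all tested probe sets reached that level. With the replicate number as a block, 0 of the 15 passed the adjusted threshold (0.0183% of all did). Of the 15, 6 had an unadjusted p under 0.05 in the block fit, 3 lower and 3 higher, where 17.7% of all tested probe sets did (9.58% lower, 8.15% higher).

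**Figure D1:**
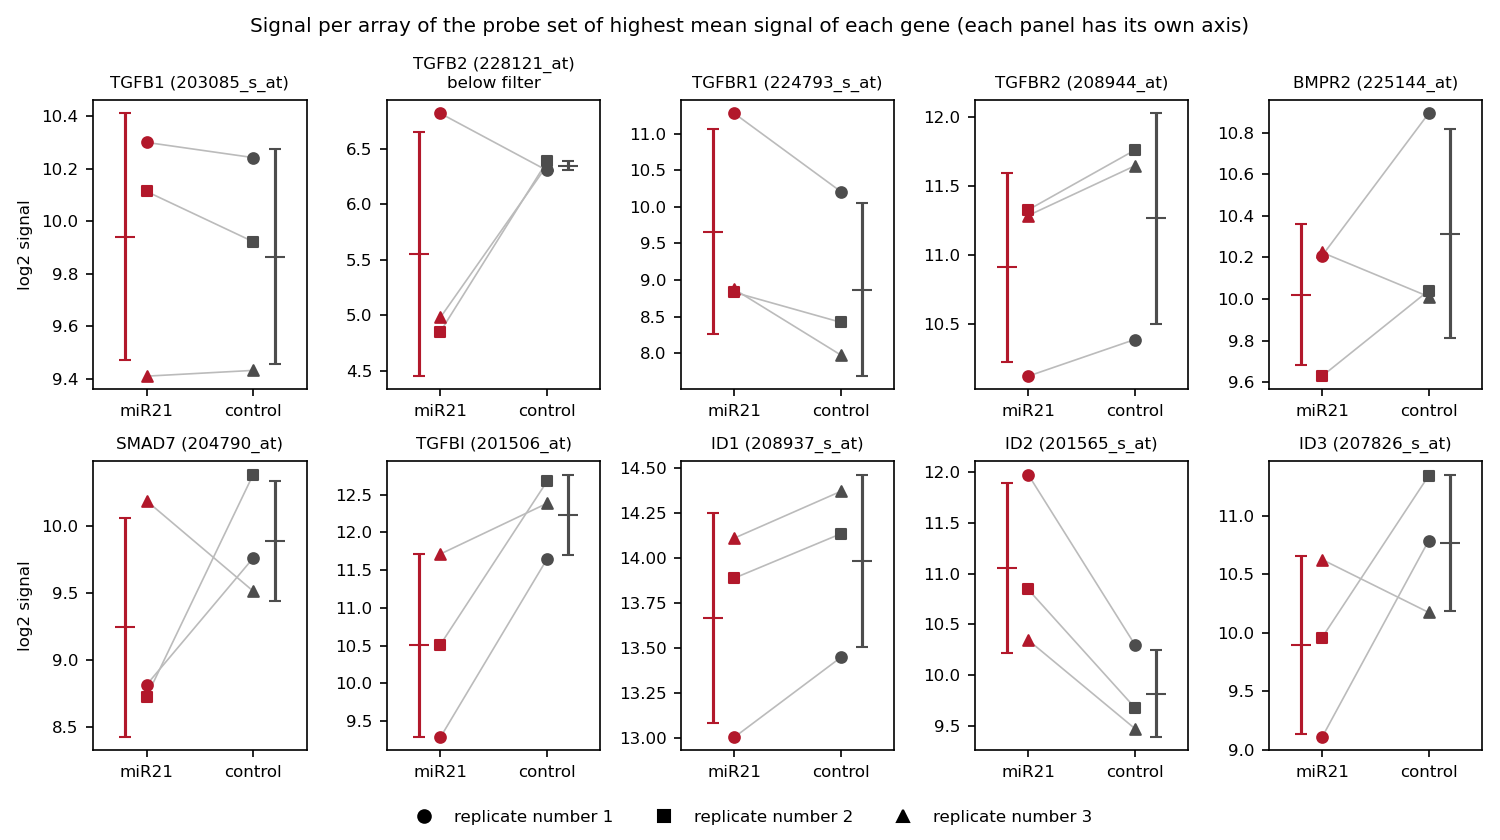
Log2 signal on each array for the probe set of highest mean signal of each gene, miR21 left and control right, with the replicate number as the symbol, grey lines joining arrays of the same number, and bars for mean ± SD (n = 3). Each panel has its own vertical axis. The 3 ID2 values with miR21 all lie above the 3 control values, and the lines of SMAD7, ID3 and BMPR2 cross between number 3 and the other numbers.

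The ligand TGFB1 was measured by a bright and a dim probe set, and neither separated the groups. Probe set 203085_s_at had signals of 1261, 1108 and 681 with miR21, against 1211, 970.2 and 691 with control, in the order of replicate numbers 1, 2 and 3, which is kept throughout. Its log2 difference was 0.08 (SE 0.37, limma), well within the spread between arrays. The dim probe set 203084_at had signals of 90.1, 88.3 and 81.6 with miR21 and 102, 98.0 and 76.8 with control, a difference of -0.08 (SE 0.44). The groups overlapped for both.

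TGFB2, a second TGF-beta isoform, was dim on all 5 of its probe sets, which lay below the signal filter. Their signals ran from 2.37 to 113 with miR21 and from 0.882 to 83.8 with control. The differences went both ways, from -1.45 (220407_s_at) to 2.82 (209908_s_at), with 2 probe sets higher and 3 lower. The last had signals of 22.0, 18.5 and 7.94 with miR21 against 3.76, 0.882 and 2.77 with control, which do not overlap. With 16 added to each signal its difference was 0.78, so its size depended on values near the bottom of the scale. The level of TGFB2 therefore could not be compared between the groups.

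TGFBR1, the type I TGF-beta receptor, gave different answers from different probe sets. The brightest, 224793_s_at, had signals of 2482, 456 and 469 with miR21, against 1183, 343 and 252 with control. It was higher with miR21 within each number (1.07, 0.41 and 0.90), although the array of number 1 in each group was far above the others and the groups overlapped. Its log2 difference was 0.79, with an SE of 0.81 without the block and 0.20 with it (limma with the block, adjusted p = 0.145, unadjusted p = 0.00383). Without miR21 replicate 1 alone, which leaves the bright control array of that number without its partner, the difference was -0.015, and without both arrays of number 1, with the block, it was 0.65. Probe set 236561_at had signals of 266, 221 and 245 with miR21 and 326, 264 and 131 with control. It differed by 0.12, with -0.29, -0.25 and 0.91 in numbers 1, 2 and 3, so only number 3 was clearly higher with miR21. The third, 206943_at, was below the filter and differed by -0.46.

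TGFBR2, the type II receptor and a reported miR-21 target, was lower with miR21 on its bright probe set in every number. Signals of 208944_at were 1115, 2567 and 2495 with miR21, against 1340.0, 3464 and 3202 with control. The groups overlapped because both arrays of number 1 were low. The differences within numbers were -0.27, -0.43 and -0.36, and their mean of -0.35 corresponds to a 1.28-fold lower signal. The SE was 0.50 without the block and 0.14 with it, and limma with the block gave an unadjusted p of 0.0359 and an adjusted p of 0.250. Without miR21 replicate 1 alone the difference was 0.042, and without both arrays of number 1, with the block, it was -0.40. The other probe set, 207334_s_at, was below the filter, with signals of 14.4, 53.8 and 57.0 with miR21 and 11.2, 16.8 and 56.6 with control. It pointed the other way (0.68), mostly through number 2 (1.68).

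BMPR2, the type II BMP receptor and also a reported target, was read by 6 probe sets, of which 4 were above the filter. The brightest, 225144_at, had signals of 1183, 792 and 1196 with miR21, against 1902, 1053 and 1032 with control. The miR21 arrays were lower in numbers 1 and 2 and higher in number 3, and the groups overlapped. Its difference was -0.29 (SE 0.36 without and 0.20 with the block, adjusted p = 0.472 in limma with the block). It was -0.0058 without control replicate 1 and -0.099 without miR21 replicate 2, and with the block and without number 1 it was -0.10. Probe sets 231873_at, 209920_at and 210214_s_at differed by -0.30, -0.02 and -0.31. All 4 were lower with miR21 in numbers 1 and 2 and higher in number 3, with medians of -0.43, -0.54 and 0.27. These probe sets read the same gene in the same RNA and are not independent. Leaving out miR21 replicate 2 changed the sign of 231873_at (0.31), 209920_at (0.38) and 210214_s_at (0.18). The dim probe sets 1556075_at and 238516_at differed by -0.90 and 0.37.

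SMAD7, the inhibitory SMAD, had signals of 449.8, 423 and 1169.8 with miR21, against 869, 1341 and 732 with control (probe set 204790_at). The lowest pair of values were the miR21 arrays of numbers 1 and 2, and the miR21 array of number 3 was second only to the control array of number 2. The differences within numbers were -0.95, -1.66 and 0.68, with a mean of -0.65 (SE 0.48, and 0.38 with the block, adjusted p = 0.413). SMAD7 is itself a transcriptional target of the pathway as well as a reported miR-21 target. Without miR21 replicate 3 the difference was -1.12, and it was -0.43, -0.39 and -0.40 without miR21 replicate 1, miR21 replicate 2 and control replicate 2. With the block it was -0.49, -0.14 and -1.31 without numbers 1, 2 and 3.

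TGFBI, the TGF-beta-induced matrix gene, was the member with the lowest relative signal after miR21. Probe set 201506_at had signals of 624, 1462 and 3357 with miR21, against 3207, 6541 and 5346 with control. The miR21 array was the lower one within every number, and the groups overlapped only through the miR21 array of number 3 and the control array of number 1. The differences were -2.36, -2.16 and -0.67, and their mean of -1.73 is a 3.32-fold lower signal. The SE was 0.61 without the block (limma, unadjusted p = 0.0225) and 0.30 with it (unadjusted p = 0.000420, adjusted p = 0.0955), so it did not pass either test. The two-sided exact permutation p was 0.2, and groups of 3 arrays cannot go below 0.1. With 1 array left out, the difference lay between -2.34 (without miR21 replicate 3) and -1.12 (without miR21 replicate 1).

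The ID genes differed in sign. ID2 was higher with miR21, ID1 was slightly lower, and ID3 was lower in numbers 1 and 2 only.

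For ID2, probe set 201565_s_at had signals of 4039, 1839 and 1301 with miR21, against 1262, 819 and 710.1 with control. Every miR21 array was above every control array, which made it the only tested member probe set whose groups did not overlap. Among all tested probe sets 6.29% were apart in this way (2.82% higher, 3.47% lower). The differences were 1.68, 1.17 and 0.87, with a mean of 1.24, a 2.36-fold higher signal. The SE was 0.47 without the block (limma, unadjusted p = 0.0315) and 0.19 with it (unadjusted p = 0.000166, adjusted p = 0.0842). Its exact permutation p was 0.1, the smallest these group sizes allow. With 1 array left out, its difference lay between 0.78 (without miR21 replicate 1) and 1.60 (without miR21 replicate 3). A second ID2 probe set, 201566_x_at, whose suffix marks probes that may bind other transcripts, had signals of 1089, 133.2 and 79.1 with miR21, against 250.7, 44.4 and 76.7 with control. It differed by 2.12, 1.59 and 0.04 in numbers 1, 2 and 3, with a mean of 1.25, so number 3 showed almost no difference there. This mean depended on single arrays, at 0.11 without miR21 replicate 1, 0.70 without control replicate 2 and 2.01 without miR21 replicate 3. The probe set that names both ID2 and ID2B, 213931_at, went the other way in numbers 1 and 2. Its signals were 379.7, 186 and 103 with miR21 and 571, 257 and 80.5 with control, a difference of -0.23. The 3 probe sets therefore did not give 1 answer, and which transcripts each binds was not tested.

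ID1 was measured by 1 probe set, 208937_s_at, with signals of 8227, 15176 and 17701 with miR21, against 11189, 18002 and 21197 with control. The miR21 array was lower within each number, by 0.44, 0.25 and 0.26 on the log2 scale, while the numbers themselves differed more than the groups. The mean difference was -0.32 (SE 0.39, and 0.14 with the block, adjusted p = 0.293). Without miR21 replicate 1 alone it was 0.015, and without both arrays of number 1, with the block, it was -0.25.

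ID3 had signals of 551, 995 and 1581.5 with miR21, against 1769, 2599 and 1156 with control (probe set 207826_s_at). Like SMAD7, it was lower with miR21 in numbers 1 and 2 (-1.68 and -1.39) and higher in number 3 (0.45), where the control array was the lowest of its group. The mean difference was -0.87, a 1.83-fold lower signal, with an SE of 0.48 without the block and 0.37 with it (limma with the block, unadjusted p = 0.0441, adjusted p = 0.270). The difference was -0.48 without miR21 replicate 1 and -0.58 without control replicate 2, and with the block it was -0.47 without number 1 and -0.61 without number 2.

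**Figure D2:**
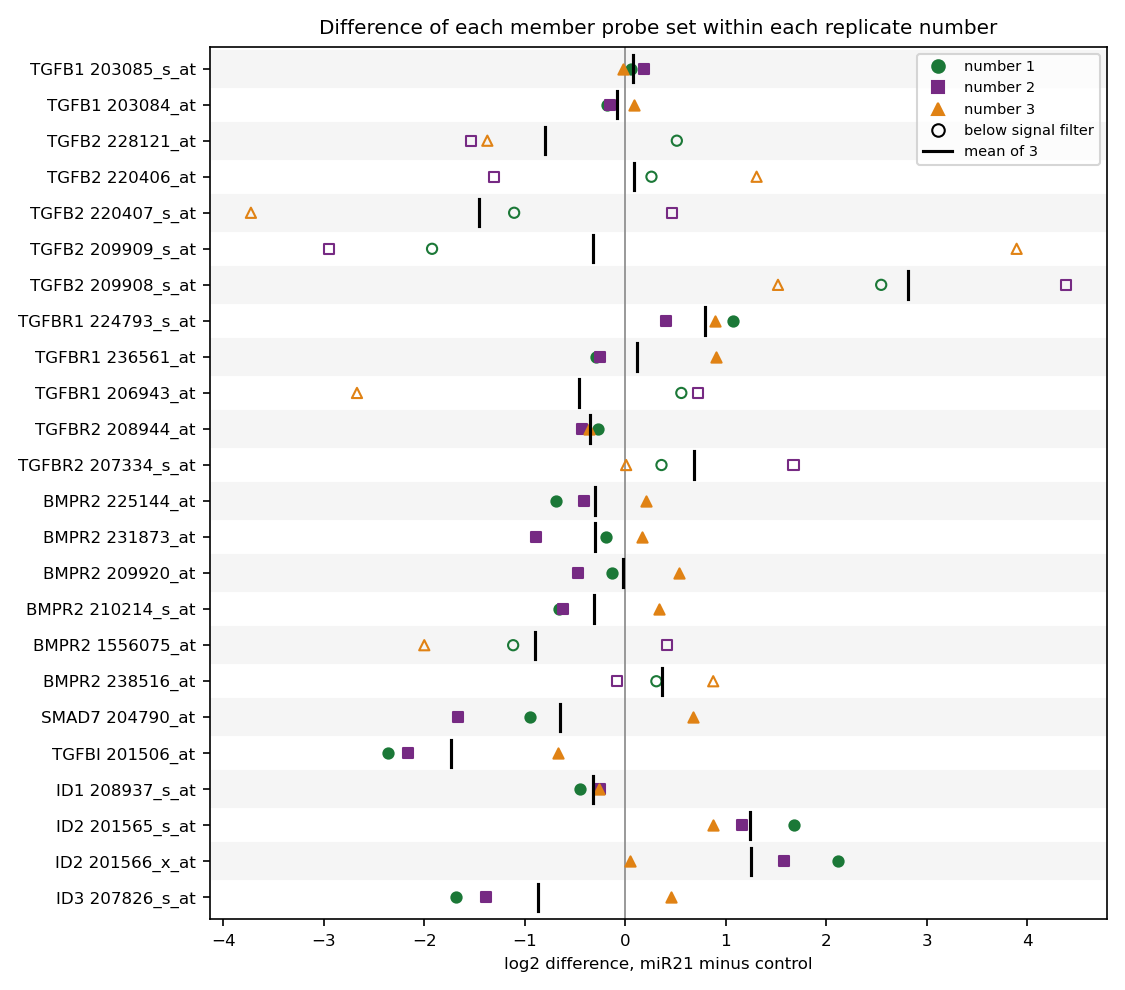
Log2 difference (miR21 minus control) of each of the 24 member probe sets within replicate numbers 1, 2 and 3 (symbols) with their mean (black bar), and open symbols for probe sets below the signal filter. TGFBI lies left of 0 and ID2 right of 0 in every number, and the open symbols scatter from -3.72 to 4.39.

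Promoter windows of TGFBI and the 3 ID genes are shown because these response genes share SMAD signalling as an input and differed in direction. Each window runs from 250 bases before to 50 after the RefSeq gene start (GRCh38.p14), 5′ to 3′ on the gene's strand. Capitals mark a SMAD-binding core, GTCTG, searched on both strands, or GGCGCC, a GC-rich SMAD site of the BMP branch. The windows are chr20:31605039-31605338 (plus) for ID1, chr2:8681806-8682105 (plus) for ID2, chr1:23559452-23559751 (minus) for ID3 and chr5:136028738-136029037 (plus) for TGFBI.
ID1: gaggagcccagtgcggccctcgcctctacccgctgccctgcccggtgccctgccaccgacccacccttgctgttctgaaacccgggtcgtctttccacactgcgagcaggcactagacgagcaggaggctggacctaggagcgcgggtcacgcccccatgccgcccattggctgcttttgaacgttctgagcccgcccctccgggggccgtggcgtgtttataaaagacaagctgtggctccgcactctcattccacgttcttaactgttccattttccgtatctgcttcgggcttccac
ID2: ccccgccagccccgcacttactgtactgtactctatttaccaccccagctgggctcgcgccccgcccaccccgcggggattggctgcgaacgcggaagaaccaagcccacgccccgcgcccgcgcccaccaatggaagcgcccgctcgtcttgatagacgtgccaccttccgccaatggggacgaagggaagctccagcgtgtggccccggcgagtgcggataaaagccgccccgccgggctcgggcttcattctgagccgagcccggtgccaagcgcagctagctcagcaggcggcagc
ID3: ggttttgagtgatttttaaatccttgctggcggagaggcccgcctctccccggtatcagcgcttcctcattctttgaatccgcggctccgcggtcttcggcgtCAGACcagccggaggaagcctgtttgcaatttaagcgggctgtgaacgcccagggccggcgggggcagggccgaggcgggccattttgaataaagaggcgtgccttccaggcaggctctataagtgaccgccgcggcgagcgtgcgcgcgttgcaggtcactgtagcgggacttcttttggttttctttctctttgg
TGFBI: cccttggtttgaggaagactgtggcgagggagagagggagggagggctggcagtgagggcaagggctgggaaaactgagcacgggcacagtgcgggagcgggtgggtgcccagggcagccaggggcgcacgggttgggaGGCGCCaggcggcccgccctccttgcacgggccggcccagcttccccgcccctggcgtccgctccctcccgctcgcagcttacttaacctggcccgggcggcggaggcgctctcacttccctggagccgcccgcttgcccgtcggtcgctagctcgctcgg
GTCTG was found on either strand in 1 of the 4 windows, that of ID3, and in 45.3% of 35116 windows of this length. GGCGCC was found in 1, that of TGFBI, and in 19.2% of all windows. The palindrome GTCTAGAC was in 0 of the 4 and in 0.202% of all. The 3 motifs do not overlap in the windows shown. ID1 and ID2, which differed in direction, held none of these 3 motifs here. That says nothing about shorter or other SMAD sites within these windows, which were not searched for, or about sites elsewhere.

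The reported targets and the ID genes were then set side by side, as medians without a test. The 7 tested probe sets of TGFBR2, BMPR2, SMAD7 and TGFBI had a median log2 difference of -0.31, and all 7 were lower with miR21. Of these 7, 4 read BMPR2 in the same RNA, and 14785 of all 27307 tested probe sets were lower. Below the filter, TGFBR2 207334_s_at (0.68) and BMPR2 238516_at (0.37) were higher, and BMPR2 1556075_at (-0.90) was lower. With 1 array left out the target median lay between -0.61 (without miR21 replicate 3) and -0.099 (without miR21 replicate 2), and it was also -0.20 without control replicate 1. The 4 ID probe sets had a median of 0.46, with 2 higher (both ID2) and 2 lower (ID1 and ID3). Over all 27307 tested probe sets the median was -0.04. The difference between the ID and target medians was 0.77, and within numbers 1, 2 and 3 it was 1.28, 1.07 and 0.04. With 1 array left out it lay between 0.45 (without miR21 replicate 1) and 1.13 (without miR21 replicate 3). It rested on ID2 being counted by 2 probe sets. With 1 probe set per gene, the ID median was -0.32 and that of the targets -0.50, a gap of 0.18. By these medians, with 1 probe set per gene, both classes were on the lower side, and ID2 alone among the 7 genes was higher.

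Numbers 1 and 2 differed from number 3 in these genes. All 7 target probe sets were lower with miR21 in number 1 and all 7 in number 2, against 2 in number 3 (TGFBR2 and TGFBI), where the other 5 were higher. Over the 15 tested member probe sets, 11 were lower in number 1, 11 in number 2 and 4 in number 3. Of all 27307 tested probe sets, 14645, 14498 and 13809 were lower in numbers 1, 2 and 3. Some genes count more than once among the 15, with 4 probe sets for BMPR2. The same sign in all 3 numbers was held by 3 on the lower side (TGFBR2 208944_at, TGFBI and ID1) and 3 on the higher side (TGFBR1 224793_s_at and both ID2). Among all tested probe sets 21.3% were lower and 18.0% higher in all 3. Whether the numbers differed in their response was not tested.

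**Figure D3:**
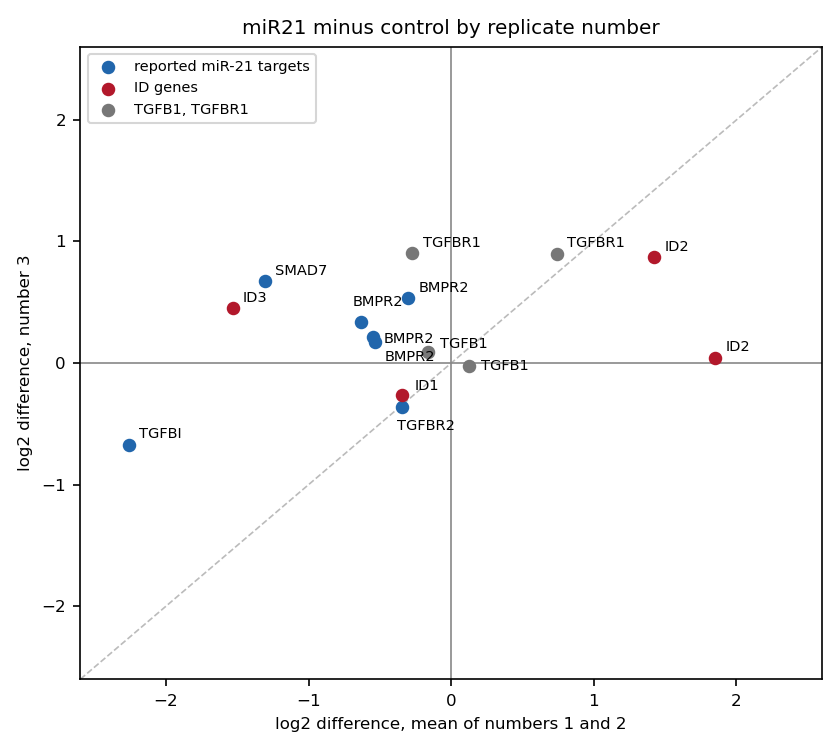
Log2 difference (miR21 minus control) in replicate number 3 against the mean of numbers 1 and 2 for the 15 tested member probe sets, with equal axes and a dashed line of equality. SMAD7, ID3 and the 4 BMPR2 probe sets lie in the upper left, lower in numbers 1 and 2 and higher in number 3.

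Leaving out both arrays of 1 number, with the block, rests on 2 pairs and 1 residual degree of freedom. Without number 3, limma called 7 of the 15 member probe sets at an adjusted p under 0.05, against 26.5% of all tested probe sets. On the lower side were TGFBI (-2.26), ID3 (-1.53), SMAD7 (-1.31) and BMPR2 225144_at (-0.55, adjusted p = 0.00628). On the higher side were both ID2 probe sets (1.42 and 1.85) and TGFBR1 224793_s_at (0.74, adjusted p = 0.000520). In that fit the variances were pooled almost fully across probe sets (27310 total degrees of freedom after shrinkage, against 7.97 with all arrays), so its p-values carry little of each gene's own spread. Without number 1, TGFBI was the only member called (-1.42, adjusted p = 0.0343), against 0.205% of all probe sets, at 29.8 total degrees of freedom. Without number 2, 0 of the 15 and 0% of all were called by limma, at 8.39 total degrees of freedom.

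Other genes of the pathway were taken from 7 lists arranged by role. Of 89 listed genes, 83 are named alone by a probe set, and 68 were above the filter on their probe set of highest mean signal. None of the 68 passed limma at an adjusted p under 0.05, with the block or without it (0.0328% of 12206 genes with the block and 0% without). At an unadjusted p under 0.05 the fit without the block held 5 of them, all TGF-beta response genes. Over all genes, 295 of 12206 reached that level in the same fit. With the block, 22 of the 68 were lower and 7 higher at that level, where 20.7% of all genes reached it (10.6% lower, 10.1% higher). In all 3 numbers 24 of the 68 were lower and 18 higher, against 20.9% and 20.3% of all genes. The median over the 68 was -0.10, against -0.01 over all genes.

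Among 10 ligand genes, 2 lower and 2 higher reached an unadjusted p under 0.05 with the block, and the median was -0.14. BMP2 had signals of 505, 489 and 341 with miR21, against 1014, 1127 and 511 with control. Its log2 difference was -0.93 (SE 0.19 and adjusted p = 0.121 in limma with the block). The groups were apart by a small margin, that between the miR21 array of number 1 and the control array of number 3. Of the 68 genes, 4 were apart on the lower side and 1 on the higher side, against 399 and 413 of 12206 genes. The divergent family member GDF15, a stress-induced cytokine, had signals of 8744, 17388 and 1155 with miR21, against 2449, 6012 and 706 with control (1.36). BMP6 differed by 0.66. GDF15 was higher within each number, although its level differed between numbers by more than it did between groups.

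Of 7 other receptor and co-receptor genes, 1 was lower at an unadjusted p under 0.05 with the block, the co-receptor TGFBR3 (-0.52), and the type I and type II activin receptors ACVR1B (0.34) and ACVR2A (0.34) followed by p-value. Of 7 other SMAD genes, 1 reached that level. SMAD3, which carries the TGF-beta signal, had signals of 849, 1024 and 1407 with miR21, against 1451, 2174 and 1518 with control. The groups were apart by a small margin, that between the miR21 array of number 3 and the control array of number 1 (differences of -0.77, -1.09 and -0.11, mean -0.66, adjusted p = 0.185 with the block). The BMP-branch SMAD9 and SMAD5 differed by 0.50 and 0.28.

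Of 19 inhibitors and regulators, 5 were lower and 2 higher at an unadjusted p under 0.05 with the block, and the median was 0.06. BAMBI, a pseudoreceptor that dampens both branches, had signals of 1451, 2727 and 1168 with miR21, against 684, 1194 and 1088 with control (0.79). The corepressor TGIF1 differed by 0.65, and FKBP1A, whose product keeps the type I receptor inactive, by -0.49. BAMBI and TGIF1 were higher in all 3 numbers, with little difference in number 3 (0.10 and 0.19).

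Among 16 TGF-beta response genes the median was -0.56, with 11 lower and 1 higher at an unadjusted p under 0.05 with the block. They are partly genes already known from earlier results of these data, so their direction is not independent evidence. SNAI2, a transcription factor of epithelial-mesenchymal transition, had signals of 418, 214 and 414 with miR21, against 1138, 805 and 684 with control (-1.36, SE 0.25 with the block, adjusted p = 0.09998). The actin-binding TAGLN and the matrix gene THBS1 differed by -2.49 and -2.62, with -0.58 and -0.56 in number 3. Like TGFBI, these 3 genes were lower with miR21 in all 3 numbers. IGFBP3 was the 1 gene of the list that was higher at an unadjusted p under 0.05 with the block. Its signals were 13591, 26087.5 and 22415 with miR21, against 2735, 6347 and 20109.5 with control (1.503). IGFBP3 was higher in all 3 numbers, with little difference in number 3 (0.157).

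Of 6 other BMP response genes, 1 was higher and 1 lower at an unadjusted p under 0.05 with the block. HEY1, a transcriptional repressor, had signals of 1394, 4114 and 355 with miR21, against 439, 664 and 327 with control (1.47), with almost no difference in number 3 (0.12). RUNX2, a transcription factor of bone formation, differed by -0.51, and the repressor HES1 by 0.32. ID4, the fourth ID family member, had a difference of 0.0044, with -0.22, -0.28 and 0.52 in numbers 1, 2 and 3. Of the E proteins that ID proteins bind, TCF4 differed by -1.05, with signals of 187, 162 and 124 with miR21 against 525, 399 and 161 with control, TCF12 by 0.46 and TCF3 by -0.22.

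**Figure D4:**
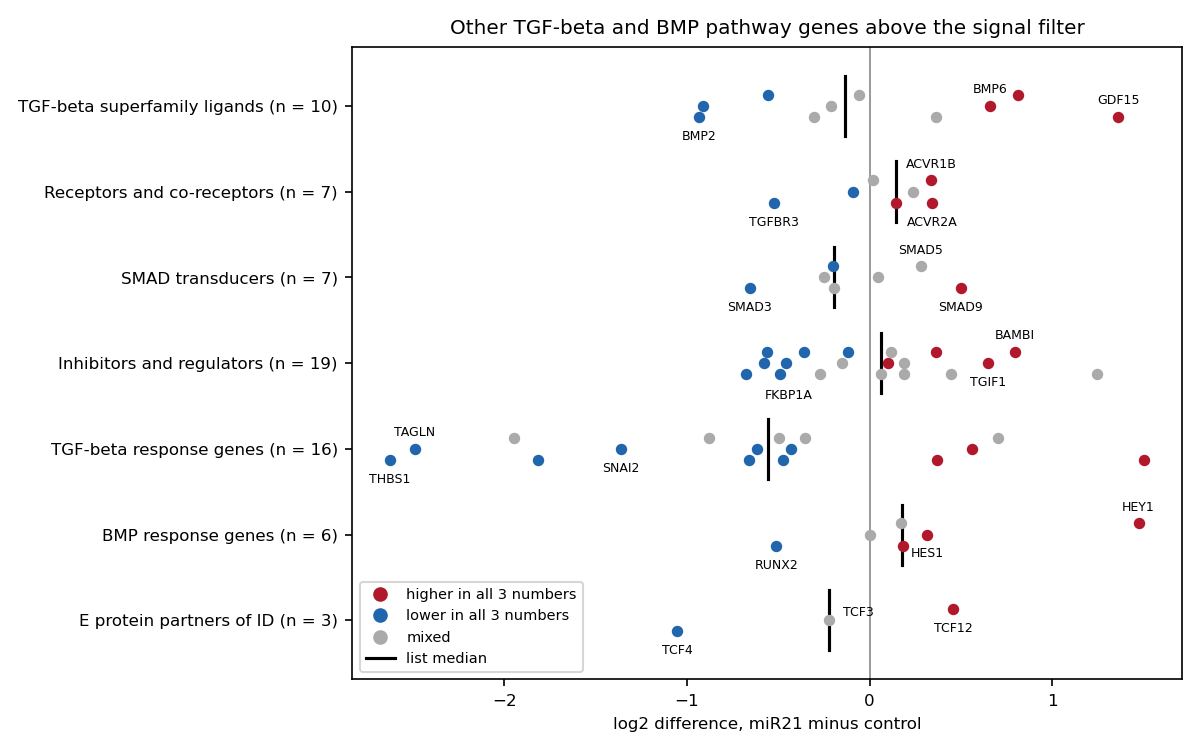
Log2 difference (miR21 minus control) of the 68 other pathway genes above the signal filter, by list, coloured by whether the sign was the same in all 3 replicate numbers, with the list median as a black bar. The TGF-beta response genes reach from -2.62 to 1.503 with a median of -0.56, and the other lists have medians between -0.22 and 0.18.

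Likeness was taken as Pearson's r of log2 signal over the 6 arrays, among the 12206 genes without the members. The genes most like TGFBI were VKORC1 (0.998), ARLN (0.996) and RPS6KA1 (0.995). Those most like ID1 were GSTO1 (0.9998), HNRNPAB (0.998) and CTBP1 (0.997). These values describe 6 arrays that share the replicate numbers, and the highest of so many comparisons is high by selection.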

How the data were processed

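SKOV3 RNA was hybridised to U133 Plus 2.0 arrays, 1 per sample. The deposited values are linear signal intensity per probe set, made with MAS5 per the submitters' processing notes, which do not give a version or settings in the sources used here. Array means without the outer 2% at either end are all 500.1, so the authors had scaled the arrays to a common level, which hides any shift that most genes share.

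Of 54613 non-control probe sets, 41091 have 1 gene in the platform annotation, 1801 several and 11721 none, and 0 symbols needed updating through RefSeq. Log2 signals were compared with lmFit and eBayes (variance trend) of limma 3.58.1, run in R 4.3.3, over the 27307 probe sets at or above the median mean signal, with Benjamini-Hochberg adjustment at 0.05. Single probe sets also had an exact two-sided permutation test. The number of arrays limits the precision.

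Replicate numbers were read from the titles of the samples. Deviations from the group means correlated at 0.878, 0.643 and 0.630 for arrays of the same number, and between -0.704 and 0.349 otherwise, so the numbers were taken to pair the arrays, and the block fit is given beside the fit without it. The members and lists were chosen with earlier results of these data known. All 10 genes are named with their probe sets. Of each pathway list, genes that passed, or otherwise the 3 with the smallest p in the block fit, were named. ID4 was added after its value was seen, as the remaining ID family member. IGFBP3 was also added after its value was seen, as the response gene that went furthest the other way. The alternatives are listed in the closing section. The fits were also run on simulated data with the same effect in every number, and no result here rests on that run. Sequences are from RefSeq.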

Additional observations from a re-analysis of the deposited data

How the results depend on the processing

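The alternatives were quantile normalization, median centring, 16 added to each signal, other filters, no variance trend, array weights, 1 probe set per gene or the mean of all, the replicate block, and arrays left out. Over all 6 arrays limma called 0 member probe sets in each of them, and in the whole series there were 0 calls except with the replicate block, which gave 5. With the block, leaving out both arrays of number 1, 2 or 3 gave 56, 0 and 7243 calls over the whole table and 1, 0 and 7 among the members. The ID median of 0.46 became -0.32 with 1 probe set per gene, with probe sets averaged per gene and with the upper quartile filter, since these leave ID2 a single value, and it lay between 0.064 and 0.53 with 1 array left out.

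The tested member probe sets that changed sign had differences between -0.35 and 0.79. Probe sets below the filter also changed sign, among them TGFBR1 206943_at (-0.46), which was 0.67 without miR21 replicate 3. TGFB1 203084_at was 0.0090 with quantile normalization and 0.019 with median centring, and BMPR2 209920_at was 0.037 and 0.075. With array weights, BMPR2 209920_at was 0.12, BMPR2 210214_s_at 0.026 and TGFBR1 236561_at -0.10. With the mean of all probe sets, TGFB1 was -0.0021 and TGFBR2 0.17, the second through its dim probe set. With the block and without number 1, 2 or 3, BMPR2 209920_at was 0.030, 0.20 and -0.30, and TGFBR1 236561_at was -0.27 without number 3. With 1 array left out, TGFB1 203085_s_at ranged from -0.14 to 0.34, TGFBR1 224793_s_at from -0.015 to 1.46 and TGFBR1 236561_at from -0.27 to 0.39. TGFBR2 208944_at ranged from -0.79 to 0.042, ID1 from -0.58 to 0.015, and BMPR2 209920_at, 231873_at and 210214_s_at from -0.61 to 0.38, -0.72 to 0.31 and -0.87 to 0.18. The causes were not tested. TGFBI, SMAD7, ID3 and both ID2 probe sets kept their sign in every alternative run.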
